A study of Mus musculus with 6 samples.

Results

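The genes described here mark the upstream, arterial end of the brain's vessels and the cells wrapped around them. They are 10 of the 46983 gene identifiers counted in the cerebellum libraries, and all 10 passed the filter on low counts that left 16851 genes. Gkn3, Bmx, Efnb2 and Sema3g are arterial endothelial genes, Acta2, Myh11 and Tagln are contractile genes of smooth muscle, and Pdgfrb, Kcnj8 and Vtn are genes of pericytes, the mural cells of capillaries. The genes were chosen by known role, with their measured differences between these groups in view, so those differences are given as a description and support nothing.

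Whole cerebellum of mice on the C57BL/6J background was sampled at postnatal day 60, with 3 animals labelled Slc7a5-KO (Tie2-Cre, Slc7a5 fl/fl) and 3 labelled WT (Tie2-Cre, Slc7a5 fl/+). Both groups thus carried the Tie2-Cre driver, a recombinase of endothelial and blood lineages, and the WT animals had a floxed allele as well. The WT label therefore stands for heterozygous floxed animals with Cre, not for animals with an unaltered Slc7a5 gene. Slc7a5 encodes LAT1, the large neutral amino acid transporter of the blood-brain barrier, and the series title concerns amino acid transport at that barrier. Strand-keeping mRNA libraries were sequenced from each animal, so the replicates are separate mice.

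Depth was 13438182 to 31077690 gene reads in libraries labelled Slc7a5-KO and 27672205 to 34160856 in WT, and replicate 3 labelled Slc7a5-KO was the shallowest. Slc7a5 itself stood at 164, 59.4 and 118 CPM in libraries labelled Slc7a5-KO and at 72.0, 66.3 and 43.2 CPM in WT, where CPM (cpm from edgeR) scales counts to the TMM-adjusted number of gene reads. Its log2 fold change was 0.91 ± 0.42, with an adjusted p of 0.84 in edgeR. The counts of the targeted gene thus did not bear out the labels, and every direction below follows the labels alone. The labels do not name the exons between the loxP sites, and most cells of the tissue lie outside the Tie2 lineage. Whether either bears on the Slc7a5 counts was not tested. Cerebellar markers were abundant in every library, with the summed CPM of 8 Purkinje cell markers at 3573 to 5347 in libraries labelled Slc7a5-KO and at 5146 to 6274 in WT. For 8 granule neuron markers the sums were 3435 to 5587 in libraries labelled Slc7a5-KO and 4001 to 5876 in WT. Choroid plexus signal set 1 library apart, since Ttr, the most abundant marker of that tissue, stood at 15.5 CPM in replicate 2 labelled Slc7a5-KO, whereas the other 5 libraries held 2158 to 5317 CPM.

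In the brain, arteries branch into arterioles and capillaries, and endothelial identity shifts along that axis under Notch and ephrin signalling. Ephrin-B2 on arterial endothelium meets EphB4 on veins, Notch ligands on arterial endothelium signal to Notch3 on mural cells, and PDGF-B from endothelium recruits pericytes through PDGF receptor beta. Smooth muscle of arterioles contracts through alpha-actin and smooth muscle myosin, whose genes are driven by serum response factor and myocardin at CArG boxes. Pericytes carry an ATP-sensitive potassium channel built from Kir6.1 and SUR2.

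Promoter windows were found in RefSeq (GRCm38.p6) for 7 of the 10 genes, each from 250 bases before the RefSeq start to 50 bases from it. Those of Acta2, Gkn3 and Sema3g are shown, Acta2 as the textbook CArG-driven gene of smooth muscle, and Gkn3 with Sema3g as the arterial genes whose values lay on opposite sides of WT. Capitals mark windows of 10 letters that are 1 letter short of the CArG box. They are written 5′ to 3′ on the strand of the gene.
Acta2 promoter, chr19:34255324-34255623, minus strand: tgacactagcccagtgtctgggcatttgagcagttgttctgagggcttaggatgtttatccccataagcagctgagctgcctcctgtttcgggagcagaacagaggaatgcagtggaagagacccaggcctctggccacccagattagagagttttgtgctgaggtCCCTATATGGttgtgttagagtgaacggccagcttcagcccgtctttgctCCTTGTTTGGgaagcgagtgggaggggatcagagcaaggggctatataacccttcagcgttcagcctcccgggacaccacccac
Gkn3 promoter, chr6:87388886-87389185, minus strand: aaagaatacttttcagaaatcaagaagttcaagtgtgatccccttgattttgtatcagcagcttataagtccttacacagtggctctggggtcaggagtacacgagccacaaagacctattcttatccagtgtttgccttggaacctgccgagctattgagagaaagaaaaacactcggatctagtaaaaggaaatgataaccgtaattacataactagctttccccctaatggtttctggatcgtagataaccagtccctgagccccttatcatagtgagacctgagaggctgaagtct
Sema3g promoter, chr14:31217623-31217922, plus strand: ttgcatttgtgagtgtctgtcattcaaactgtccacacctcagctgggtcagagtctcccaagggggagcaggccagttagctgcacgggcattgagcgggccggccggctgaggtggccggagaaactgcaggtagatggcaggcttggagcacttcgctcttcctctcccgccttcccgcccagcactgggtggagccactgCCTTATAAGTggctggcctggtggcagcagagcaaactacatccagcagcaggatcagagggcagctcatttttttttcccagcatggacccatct
A full CArG box occurred in none of the 7 windows and in 1.63% of the 32851 promoter windows in the table. Windows 1 letter short of it occurred in 3 of the 7, in Acta2, Sema3g and Kcnj8, and in 19.9% of all windows. Acta2 held a pair of them, starting at -84 and -34, where 0 is the first base of the gene by RefSeq, and GENCODE starts the gene further upstream. TGGGAA, the core letters read by the Notch effector RBPJ, was searched on both strands and lay in 5 of the 7 windows and in 25.6% of all windows, and in Acta2 it overlapped the second CArG-type window. Neither set of letters was found in the Gkn3 window. These are letter matches only, and binding was not measured here.

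Gkn3 had the widest separation between the groups of any of the 10 genes. Gkn3 encodes gastrokine 3, a secreted protein whose transcript marks arterial endothelium in the mouse brain (ENSMUSG00000030048.5, GRCm38 chromosome 6, 87383256 to 87388935, minus strand, protein-coding). It stood at 3.81, 3.63 and 2.72 CPM in libraries labelled Slc7a5-KO and at 5.93, 10 and 10.1 CPM in WT. Every library labelled Slc7a5-KO lay below every WT library, and WT replicate 1 was nearest to them. The counting intervals of those neighbours did not overlap, at 3.16 to 4.54 CPM in replicate 1 labelled Slc7a5-KO and 5.16 to 6.79 CPM in WT replicate 1 (95% exact Poisson, counting error only). The mean was 3.38 ± 0.58 CPM in libraries labelled Slc7a5-KO and 8.67 ± 2.37 CPM in WT (SD, n = 3 each), a log2 fold change of -1.34 ± 0.34 (SE). In bulk tissue, fewer cells of a type and less RNA per cell cannot be told apart.

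Across the 16851 genes tested, edgeR called 8 genes at an adjusted p under 0.05, which is 0.0475%, and none of the 10 vascular genes was among them. Gkn3 had an edgeR adjusted p of 0.29, and it was the 1 gene of the 10 with an unadjusted p under 0.05, as were 6.22% of all genes tested. DESeq2 and limma-voom called none of the 10 either, out of 47 and 6 genes called in all, which is 0.358% and 0.0356% of the genes given an adjusted p. In DESeq2 Bmx got no adjusted p. The authors' deposited table, made with an older DESeq2, did list Gkn3 past the threshold, with an unshrunken value of -1.35 (log2) and a p of 0.0056 after adjustment, in a table where 0.9% of genes with an adjusted p passed. No other gene of the 10 passed there, and the authors' deposited table gave no adjusted p for Bmx. Of all genes tested, 252 (1.5%), Gkn3 included, had a log2 fold change at or below its own, and 5 of these were among the 11157 genes with a mean CPM at least that of Gkn3.

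**Figure D1:**
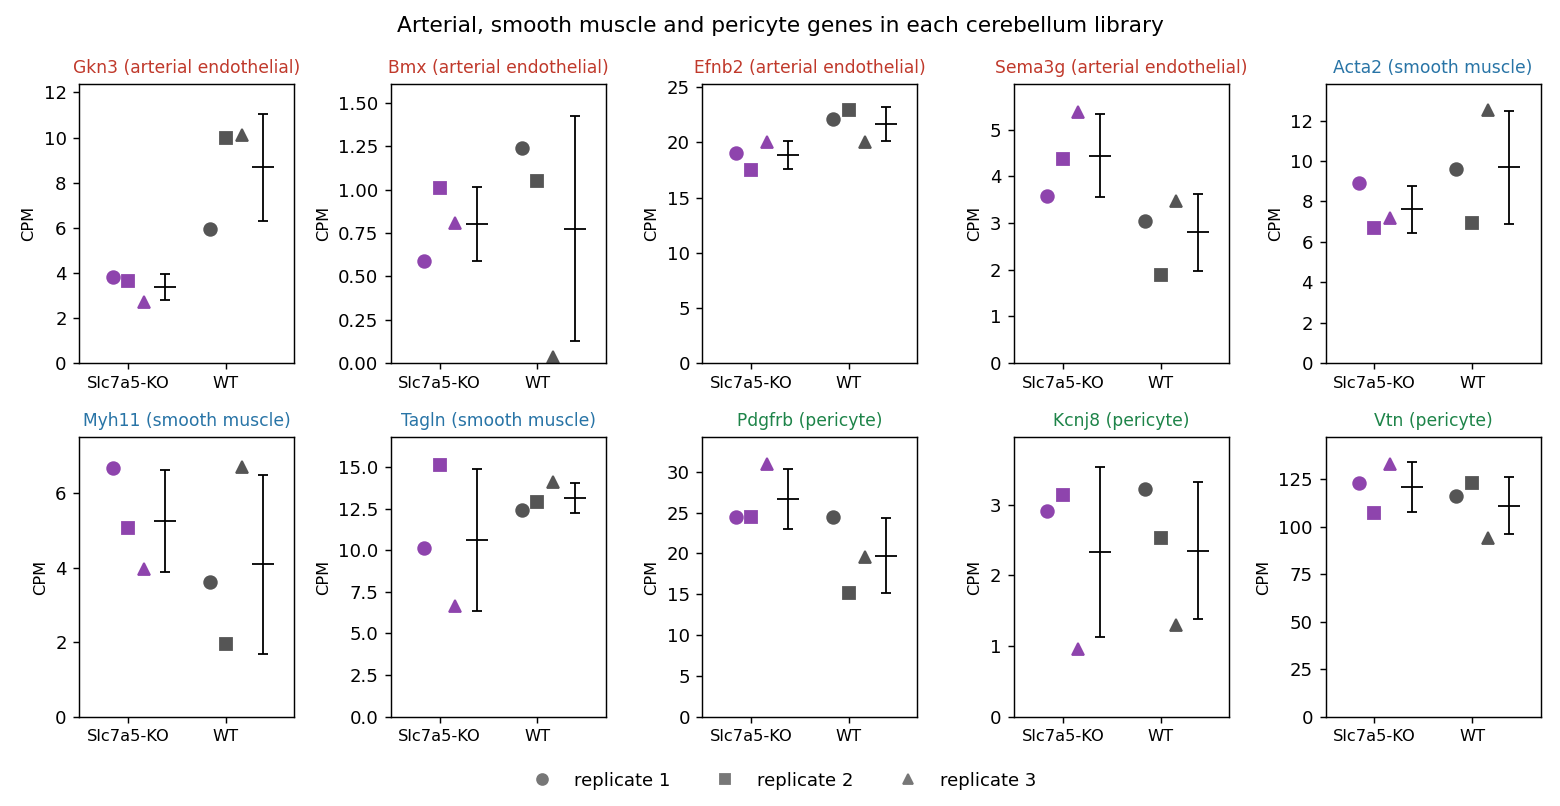
CPM (y axis, from 0) of the 10 genes in each library, libraries labelled Slc7a5-KO at left in purple and WT at right in grey, with symbols for the replicate number and bars for the mean ± SD (n = 3 each). Gkn3 lies lower and Sema3g and Pdgfrb lie higher in all 3 libraries labelled Slc7a5-KO than in all 3 WT libraries, Pdgfrb by a narrow margin.

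Sema3g, a secreted class 3 semaphorin of arterial endothelium, lay on the other side (ENSMUSG00000021904.5, chromosome 14, 31217860 to 31230352, plus strand). Its values were 3.59, 4.37 and 5.37 CPM in libraries labelled Slc7a5-KO and 3.05, 1.88 and 3.48 CPM in WT. The groups did not overlap, but the gap between the nearest libraries was small. The fitted log2 fold change came to 0.66 ± 0.43 (adjusted p in edgeR = 0.89), and 0.825 with a sex term. The ratio of Gkn3 to Sema3g CPM, which needs no library scaling, was 1.06, 0.829 and 0.507 in libraries labelled Slc7a5-KO and 1.94, 5.33 and 2.90 in WT.

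Efnb2, which encodes ephrin-B2, the classic arterial ligand, was the steadiest of the 10 (ENSMUSG00000001300.15, chromosome 8, 8617434 to 8661242, minus strand). It stood at 19.0, 17.5 and 20.0 CPM in libraries labelled Slc7a5-KO and at 22.1, 22.9 and 20.0 CPM in WT. The groups met at replicate 3 of each, and the fitted log2 fold change came to -0.20 ± 0.19 (adjusted p in edgeR = 0.95). Its SD over the 6 libraries was 0.14 on the log2 scale, and 8.75% of the 2504 genes of like level had a smaller one. Which cells of the whole cerebellum supplied the Efnb2 counts was not measured.

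Bmx, a Tec-family tyrosine kinase of arterial endothelium, was the lowest of the 10 (ENSMUSG00000031377.11, chromosome X, 164192842 to 164258193, minus strand). It had 0.588, 1.01 and 0.809 CPM in libraries labelled Slc7a5-KO and 1.24, 1.05 and 0.036 CPM in WT. The last value rests on 1 read, where the other 5 libraries had 11 to 44, and its counting interval reached 0.202 CPM at most, below the interval of every other library. With all libraries the fitted log2 fold change came to 0.042 ± 1.16 (adjusted p in edgeR = 1), and its sign was not stable, at -0.52 without WT replicate 3 and -0.16 without replicate 2 labelled Slc7a5-KO.

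The arterial genes Gkn3, Sema3g, Efnb2 and Bmx were also set against pan-endothelial genes. A score was taken as the mean log2 CPM of 20 pan-endothelial and capillary markers, each centred on its mean over the 6 libraries. Gkn3 minus that score was -0.42, -0.61 and -1.13 in libraries labelled Slc7a5-KO and 0.077, 1.16 and 0.92 in WT, a difference of means of -1.43. For Sema3g the difference was 0.56, with 0.11, 0.27 and 0.45 in libraries labelled Slc7a5-KO and -0.25, -0.60 and 0.015 in WT. For Efnb2 it was -0.32, with -0.026, -0.269 and -0.190 in libraries labelled Slc7a5-KO and 0.056, 0.438 and -0.009 in WT, narrowly apart. For Bmx it was 0.53, and the groups overlapped, with WT replicate 3 at -2.64. These scores, and the ratios that follow, reuse the same Gkn3 and Sema3g values and are not separate evidence. Relative to Pecam1, the endothelial adhesion molecule CD31, Gkn3 was at 0.127, 0.114 and 0.0699 in libraries labelled Slc7a5-KO and at 0.198, 0.274 and 0.423 in WT, as a ratio of CPM. Sema3g relative to Pecam1 overlapped between the groups, at 0.12 to 0.138 in libraries labelled Slc7a5-KO and 0.0515 to 0.146 in WT. Gkn3 relative to Cldn5, the tight junction protein claudin-5, was at 0.494, 0.267 and 0.325 in libraries labelled Slc7a5-KO and at 0.729, 1.34 and 1.36 in WT. Pecam1 itself stood at 29.9 to 38.9 CPM in libraries labelled Slc7a5-KO and at 23.8 to 36.5 CPM in WT, and Cldn5 stood at 7.71 to 13.6 CPM in libraries labelled Slc7a5-KO and at 7.42 to 8.14 CPM in WT.

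The 3 contractile genes of smooth muscle overlapped between the groups and did not share a direction. Acta2, smooth muscle alpha-actin (ENSMUSG00000035783.8, chromosome 19, 34241090 to 34255590, minus strand), stood at 8.92, 6.69 and 7.20 CPM in libraries labelled Slc7a5-KO and at 9.61, 6.93 and 12.5 CPM in WT. WT replicate 3 was the highest and WT replicate 2 lay among the libraries labelled Slc7a5-KO. The fitted log2 fold change came to -0.34 ± 0.29 (adjusted p in edgeR = 0.94), and it was -0.12 without WT replicate 3 and -0.53 without WT replicate 2.

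Tagln encodes SM22-alpha, an actin-binding protein of smooth muscle (ENSMUSG00000032085.4, chromosome 9, 45929619 to 45936058, minus strand). It had 10.1, 15.1 and 6.62 CPM in libraries labelled Slc7a5-KO and 12.4, 12.9 and 14.1 CPM in WT. The libraries labelled Slc7a5-KO held both the highest and the lowest value, while the WT libraries lay close together. The log2 estimate was -0.30 ± 0.28 (adjusted p in edgeR = 0.95), and it was -0.65 without replicate 2 labelled Slc7a5-KO and -0.062 without replicate 3 so labelled. Exons of Gm48529 overlap 1241 of the 1988 exonic bases of Tagln on the opposite strand, so only the strand-specific count separates them.

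Myh11, the heavy chain of smooth muscle myosin (ENSMUSG00000018830.8, chromosome 16, 14194535 to 14291372, minus strand), had 6.69, 5.08 and 3.97 CPM in libraries labelled Slc7a5-KO and 3.62, 1.95 and 6.70 CPM in WT. WT replicates held the highest and the lowest value of the 6 libraries. The fitted log2 fold change came to 0.37 ± 0.43 (adjusted p in edgeR = 0.96), 0.039 without WT replicate 2 and 0.92 without WT replicate 3. It was 0.70 with a sex term, and WT replicate 2, lowest in Myh11, was the WT library read as female (Xist at 2244 CPM). Myh11 relative to Acta2 was 0.750, 0.760 and 0.551 in libraries labelled Slc7a5-KO and 0.376, 0.281 and 0.538 in WT, as a ratio of CPM. The groups lay apart by this ratio, but the gap between the nearest pair, replicate 3 of each group, was small. In replicate 3 labelled Slc7a5-KO the ratio rests on 54 Myh11 and 98 Acta2 reads. Acta2 relative to Tagln overlapped between the groups. How often such ratios lie apart over all genes was not measured.

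**Figure D2:**
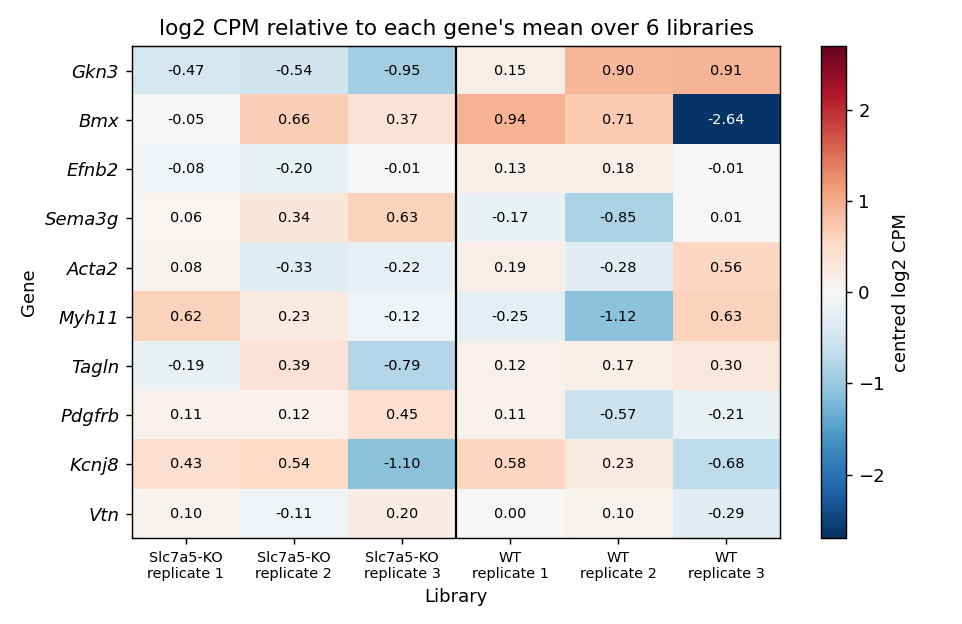
log2 CPM of each gene relative to its own mean over the 6 libraries (colour and printed value), libraries labelled Slc7a5-KO left of the line and WT right of it. Gkn3 is below its mean in all 3 libraries labelled Slc7a5-KO, Bmx is lowest in WT replicate 3 at -2.64, and Kcnj8 is lowest in replicate 3 labelled Slc7a5-KO at -1.10.

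The 3 pericyte genes had log2 fold changes of 0.0056 to 0.43, and none passed the test. Pdgfrb encodes the receptor by which PDGF-B holds pericytes at vessels (ENSMUSG00000024620.11, chromosome 18, 61045150 to 61085061, plus strand). It had 24.5, 24.5 and 30.9 CPM in libraries labelled Slc7a5-KO and 24.4, 15.2 and 19.6 CPM in WT. The groups did not overlap, yet WT replicate 1 was close to the nearest library labelled Slc7a5-KO. The fitted log2 fold change came to 0.43 ± 0.21 (adjusted p in edgeR = 0.81), and 0.28 without WT replicate 2.

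Vtn, vitronectin, an adhesion protein that brain pericytes secrete, was the most abundant of the 10 (ENSMUSG00000017344.4, chromosome 11, 78499091 to 78502324, plus strand). It stood at 123, 107 and 133 CPM in libraries labelled Slc7a5-KO and at 116, 123 and 94.2 CPM in WT. The groups overlapped, with a log2 fold change of 0.12 ± 0.14 (adjusted p in edgeR = 0.96), which was 0.013 without WT replicate 3 and 0.039 with a sex term.

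Kcnj8 encodes Kir6.1, the pore of the pericyte ATP-sensitive potassium channel (ENSMUSG00000030247.9, chromosome 6, 142564837 to 142571614, minus strand). Its values were 2.91, 3.14 and 0.956 CPM in libraries labelled Slc7a5-KO and 3.22, 2.53 and 1.30 CPM in WT. Replicate 3 of each group was low, with 13 reads in the library labelled Slc7a5-KO and 36 in the WT library, and the other 4 libraries lay at 2.53 to 3.22 CPM. The mean was 2.34 ± 1.2 CPM in libraries labelled Slc7a5-KO and 2.35 ± 0.97 CPM in WT (SD, n = 3 each), and the fitted log2 fold change came to 0.0056 ± 0.57 (adjusted p in edgeR = 1). Abcc9, which encodes the SUR2 partner of that channel, stood at 6.69, 6.50 and 8.01 CPM in libraries labelled Slc7a5-KO and at 9.80, 6.17 and 8.94 CPM in WT, so it was not low in replicate 3 of either group.

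**Figure D3:**
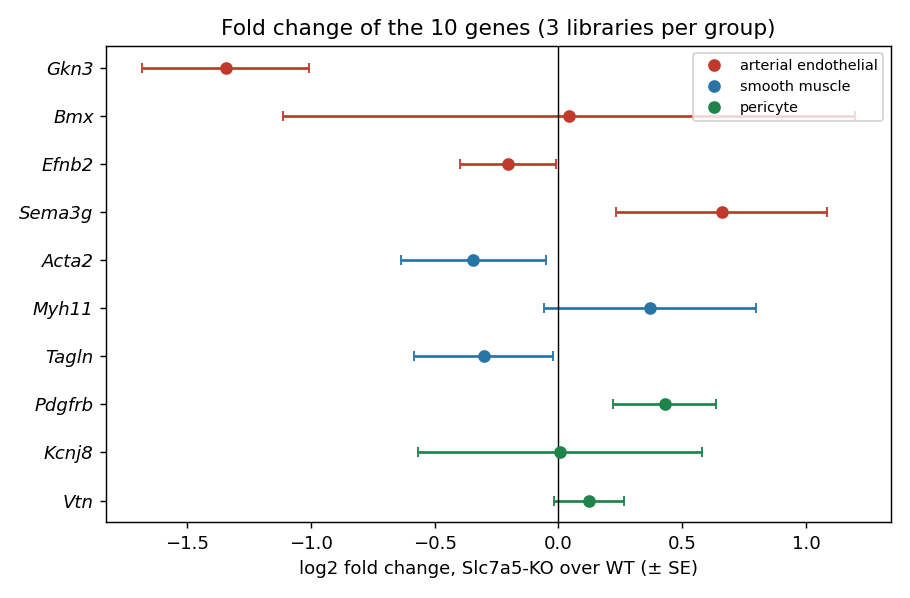
log2 fold change of the 10 genes, libraries labelled Slc7a5-KO over WT (x axis, points, bars for ± SE, 3 libraries per group), coloured by vessel compartment. Gkn3 is at -1.34, and the other 9 lie between -0.34 and 0.66.

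In all, 6 of the 10 genes had a log2 fold change above 0 and 4 below, with a median of 0.024, where the median over all genes tested was 0.0022. The groups did not overlap for 3 of the 10, as for 11.5% of all genes tested. Gkn3 was the 1 gene lower (background 5.54%), and Sema3g and Pdgfrb were the 2 higher (background 5.93%). The arterial genes had a median of -0.080, the smooth muscle genes -0.30 and the pericyte genes 0.12. Scores of the 3 compartments, built as for the pan-endothelial genes, differed between the group means by -0.045 for arterial, -0.069 for smooth muscle and 0.16 for pericyte genes, within a spread among WT libraries of 0.39, 0.45 and 0.31 (SD). The smooth muscle score ran from 0.50 in WT replicate 3 to -0.41 in WT replicate 2, so WT animals alone spanned its range.

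Levels between genes were compared per kilobase of exon. Vtn stood far above the rest, at 59.6 ± 6.53 CPM per kilobase in libraries labelled Slc7a5-KO and 54.7 ± 7.44 in WT (SD, n = 3 each). In libraries labelled Slc7a5-KO, Tagln (5.33 ± 2.15), Pdgfrb (4.86 ± 0.67), Gkn3 (3.95 ± 0.68), Acta2 (3.46 ± 0.53) and Efnb2 (2.75 ± 0.18) CPM per kilobase followed. Pdgfrb over Gkn3 and Acta2 over Efnb2 were the steps in that order that exceeded the larger SD of the pair. In WT the order was Gkn3 (10.1 ± 2.76), Tagln (6.61 ± 0.44), Acta2 (4.40 ± 1.26), Pdgfrb (3.60 ± 0.84) and Efnb2 (3.16 ± 0.22) CPM per kilobase, and Gkn3 over Tagln and Tagln over Acta2 were the steps that exceeded the larger SD. Gkn3 thus stood next to Vtn in WT and below Tagln and Pdgfrb in libraries labelled Slc7a5-KO. Sema3g, Kcnj8, Myh11 and Bmx were below 1 CPM per kilobase in the mean of either group. Among neighbours in the order of these 4, the step of Myh11 over Bmx in libraries labelled Slc7a5-KO exceeded the larger SD, and the other steps did not.

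Other genes of the same compartments were taken from lists drawn up for this comparison. Which cells of the whole cerebellum supplied their counts was not measured, so other cells may add to them. Levels within a list differed widely, as with Unc5b at a mean of 73 CPM and Gja5 at 1.15 CPM among the arterial markers. Of 101 genes in the arterial, smooth muscle, pericyte, pan-endothelial, venous and signalling partner lists, 99 were tested and none was called by edgeR, DESeq2 or limma-voom, against the 0.0475% that edgeR called over all genes. Itm2a and Mrtfb, 2 of the 99, had an unadjusted edgeR p under 0.05, as did 6.22% of all genes tested. Of the 99, 62 were above 0 and 37 below, with a median log2 fold change of 0.059, and the groups did not overlap for 9, against 11.5% of all genes tested.

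The 16 other arterial endothelial markers had a median of 0.18, with 10 above 0 and 6 below. Those of smallest p were Fbln5, the elastic fibre protein fibulin-5, and Nrp1, the neuropilin-1 co-receptor of VEGF and semaphorins. Fbln5 stood at 23.6, 18.6 and 18.2 CPM in libraries labelled Slc7a5-KO and at 16.6, 15.6 and 13.1 CPM in WT (log2 0.42 ± 0.21, edgeR adjusted p = 0.82). Nrp1 had a log2 fold change of 0.42 ± 0.22 (adjusted p in edgeR = 0.83). Of other arterial genes, named after their values were seen, the gap junction genes Gja4 and Gja5 had log2 fold changes of 0.26 ± 0.65 and -0.0032 ± 0.94, the Notch ligand Dll4 had -0.62 ± 0.57 and the transcription factor Sox17 had 0.12 ± 0.35.

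Of 18 other contractile genes 16 were tested, with Lmod1 and Myocd too low, and their median was -0.17, with 7 above 0 and 9 below. Pln, phospholamban, a regulator of the calcium pump, had 0.774, 0.673 and 0.0735 CPM in libraries labelled Slc7a5-KO and 2.54, 0.289 and 2.79 CPM in WT (log2 -1.83 ± 0.99, edgeR adjusted p = 0.85). It was lowest in replicate 3 labelled Slc7a5-KO, on 1 read, and next lowest in WT replicate 2, on 8 reads. Myh11 was lowest in WT replicate 2 but not in replicate 3 labelled Slc7a5-KO, where it stood at 3.97 CPM. Cald1, the actin regulator caldesmon, stood at 40, 31.9 and 37.1 CPM in libraries labelled Slc7a5-KO and at 41.3, 46.3 and 42.1 CPM in WT (log2 -0.25 ± 0.16, edgeR adjusted p = 0.88). The groups lay apart for Cald1 and overlapped for Pln, whose log2 fold change was -0.31 with both strands counted together and -0.74 with a sex term.

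The 16 other pericyte markers had a median of 0.086, with 11 above 0 and 5 below. Rgs5, an abundant regulator of G-protein signalling in pericytes, stood at 82.7 to 92.1 CPM in libraries labelled Slc7a5-KO and at 74.0 to 94.3 CPM in WT, a log2 fold change of 0.030 ± 0.14. Cspg4, the NG2 proteoglycan, which oligodendrocyte precursors also make, had 0.40 ± 0.29 (edgeR adjusted p = 0.92), and Foxc1, a transcription factor of mural cells and meninges, had -0.52 ± 0.43 (edgeR adjusted p = 0.93). With 1 library left out Cspg4 lay between 0.24 and 0.60 and Foxc1 between -0.87 and -0.20.

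**Figure D4:**
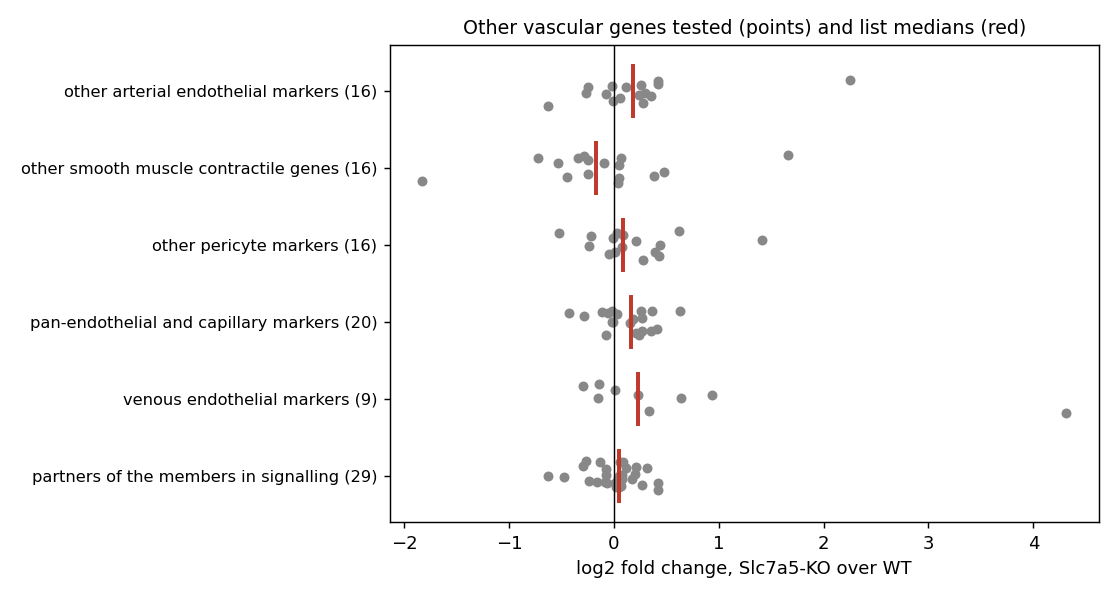
log2 fold change (x axis, libraries labelled Slc7a5-KO over WT) of each tested gene of 6 vascular lists (grey points, number tested in brackets, jittered vertically) with the list median (red line). Medians lie between -0.17 and 0.23, and the farthest point, at 4.31, is Lcn2, which had 0 to 0.579 CPM in WT.

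Endothelial genes beyond the arteries had medians of 0.17 over 20 pan-endothelial and capillary markers (12 above 0, 8 below) and 0.23 over 9 venous markers (6 above, 3 below). Itm2a, a membrane protein enriched in brain endothelium, stood at 105, 115 and 106 CPM in libraries labelled Slc7a5-KO and at 127, 174 and 137 CPM in WT, without overlap (log2 -0.43 ± 0.14, edgeR adjusted p = 0.59). Kdr, the VEGF receptor 2, had a log2 fold change of 0.63 ± 0.31 (adjusted p in edgeR = 0.81). Icam1, an adhesion molecule of venous endothelium, had 0.94 ± 0.48 (edgeR adjusted p = 0.83) and 0.38 without replicate 3 labelled Slc7a5-KO. Lcn2, the secreted protein lipocalin-2, stood at 11 CPM in that replicate, whereas the other 5 libraries held 0 to 0.579 CPM.

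Among the 29 tested partners of the 10 genes in signalling, the median was 0.046, with 18 above 0 and 11 below. Mrtfb, a myocardin-related co-activator of serum response factor, stood at 108, 110 and 135 CPM in libraries labelled Slc7a5-KO and at 88.1, 79.6 and 94.1 CPM in WT, without overlap (log2 0.43 ± 0.14, edgeR adjusted p = 0.59). Of partners named after their values were seen, Pdgfb, the ligand of the Pdgfrb receptor, had a log2 fold change of 0.059 ± 0.26, Ephb4, the receptor of ephrin-B2, had -0.30 ± 0.24, Notch3 had 0.0085 ± 0.24 and Srf, serum response factor, had 0.075 ± 0.18.

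Cells that come with vessels from the brain surface were measured by their own markers. The summed CPM of 12 meningeal and vascular fibroblast markers, led by Igf2, was 460, 243 and 514 in libraries labelled Slc7a5-KO and 520, 491 and 355 in WT. The list median was -0.065. The fibroblast sum was lowest in the library of lowest choroid plexus signal and next lowest in WT replicate 3, while Gkn3 in these 2 libraries stood at 3.63 and 10.1 CPM. The 13 choroid plexus markers summed to 2458, 50.3 and 5006 CPM in libraries labelled Slc7a5-KO and to 5395, 5887 and 2640 CPM in WT. Without replicate 2 labelled Slc7a5-KO, which held the lowest of both sums, the log2 fold change of Gkn3 was -1.40, of Sema3g 0.67 and of Pdgfrb 0.48. The 5 red blood cell markers, led by Hbb-bs, summed to 124 to 231 CPM in libraries labelled Slc7a5-KO and to 107 to 355 CPM in WT, with the highest in WT replicate 2, and no marker of these lists was at 0 in every library. The part of the remaining blood and of dissection in the vascular values was not tested.

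Likeness among the 10 genes was measured without regard to group. By root mean square difference of centred log2 CPM over the 6 libraries, the closest pair was Efnb2 with Vtn (0.18), followed by Sema3g with Pdgfrb (0.22). The measure is not scaled by spread, and Efnb2 and Vtn had the smallest SDs of the 10 (0.142 and 0.178, log2). Their closeness therefore does not show that they vary together. Acta2 and Tagln, genes of the same cells, lay 0.45 apart. By the same measure over 14694 genes with a mean of at least 1 CPM, the genes nearest to Gkn3 were Gm37529, Serpinb1b, 5430434F05Rik, Gm26803 and Eef1akmt1, at 0.11 to 0.24. Serpinb1b, a serine protease inhibitor gene, stood at 1.42, 1.94 and 1.18 CPM in libraries labelled Slc7a5-KO and at 2.63, 4.98 and 4.71 CPM in WT (edgeR adjusted p = 0.63). Genes picked for likeness to Gkn3 share its group difference by that choice, so this separation supports nothing. Nearest to the mean of Acta2, Myh11 and Tagln were Ercc5, Ephx2, Rundc3b, Twnk and Pth1r, at 0.074 to 0.12. None of the 10 nearest genes was on any of the vascular lists. Those lists hold 99 of the 16851 genes tested, so few matches would be found by selection at random, and their absence says little.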

How the data were processed

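Read counts per gene were deposited by the authors as STAR gene tables, 1 per animal, not normalised; per the submitters' processing notes STAR 2.5.4 and genome build GRCm38 (mm10) were used. Per the labels' protocols, total RNA went through a strand-keeping mRNA kit. Neither the annotation release nor duplicate removal is named in the sources used here, so counts may include PCR copies. The reverse-strand column, which held 94.8% to 95.8% of both strand columns, was used. Multimapping reads are listed as 0. Reads of no gene or of several genes, 19.5% to 22.2%, stayed out.

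A deposited table holds the authors' comparison (DESeq2 1.10.1 in R 3.2.4, per the submitters' processing notes). Per the file headers its columns are the mean normalised count (the signal of all libraries together), the log2 fold change in shrunken and unshrunken form with its error, the Wald score, and raw and adjusted p-values. The sources used here do not name its design formula.

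Here, 46488 of 46983 identifiers were matched to symbols and coordinates of GENCODE M21 (GRCm38). The quasi-likelihood test of edgeR 4.0.16 (robust, TMM scaling, R 4.3.3) was run on genes kept by filterByExpr at a minimum count of 10 and a total of 15. Its p-values were adjusted over all genes tested by the Benjamini-Hochberg method, with calls at a false discovery rate of 0.05. The edgeR biological coefficient of variation was 31.6%. Centred log2 CPM used a prior count of 2. DESeq2 1.42.0, limma 3.58.1 (voom) and the other settings of the closing section were alternatives. Counting intervals are 95% exact Poisson.

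The 10 genes and the 19 gene lists were chosen with earlier results of these data known. Of each other vascular list the 2 genes of smallest p with a mean CPM of at least 1 are named, and of each list of another cell type the most abundant marker. The result of 1 list is not reported here. Nearest patterns are the 5 genes of smallest root mean square difference. All 6 libraries were kept. The labels give no sex, and by Xist and Y-linked counts 2 of 3 libraries labelled Slc7a5-KO and 1 of 3 WT libraries were read as female, for the sex term only.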

Additional observations from a re-analysis of the deposited data

How the results depend on the processing

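None of the 10 genes and none of the other vascular list genes was called under any of the 15 alternatives. The count of all genes called, 8, was 71 with no filter on low counts, 47 with DESeq2, 44 with DESeq2 and its older prior on fold changes (added after the deposited table was seen) and 16 with a sex term. It ranged from 3 to 20 when 1 library was left out: 20 without replicate 1 or replicate 2 labelled Slc7a5-KO, 5 without replicate 3 so labelled or without WT replicate 1, and 3 without WT replicate 3. The cause was not tested. Gkn3 lay between -1.56 and -1.22 with any 1 library left out, with an edgeR adjusted p of 0.23 to 1, and had an adjusted p of 0.074 with DESeq2, 0.082 with its older prior, 0.062 without the filter and 0.62 with limma-voom. With 1 library left out, the arterial median, -0.080, lay between -0.39 (without WT replicate 3) and 0.19, the smooth muscle median between -0.34 and -0.062 and the pericyte median between 0.013 and 0.31. The arterial median was also above 0 with limma-voom (0.19) and with the replicate block (0.20). Bmx changed sign when libraries were left out, from -0.52 to 0.56, and so did Kcnj8, from -0.28 to 0.36. Kcnj8 was also below 0 with DESeq2 (-0.0015), with its older prior (-0.00036) and with the replicate block (-0.078).

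No pairing by replicate number was seen in expression: deviations from the group means of same-numbered libraries correlated at -0.038, -0.059 and -0.027. These values cannot show whether same-numbered animals were paired in another way. With the replicate block 6 genes were called. Bmx rests on 1 to 44 reads per library and Kcnj8 on 13 to 114, so counting error is a part of their spread.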

Other observations

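Cells that lie close to vessels were also measured. Of 7 perivascular macrophage markers 6 were tested, with a median log2 fold change of -0.69 and 5 of 6 below 0, and their summed CPM was 4.37, 6.65 and 8.09 in libraries labelled Slc7a5-KO and 12.7, 7.04 and 8.33 in WT. None passed the edgeR threshold over all genes. F13a1, the most abundant of them, stood at 0.929 to 4.26 CPM in libraries labelled Slc7a5-KO and at 1.8 to 4.77 CPM in WT. Several of these markers rest on few reads per library, with 0 to 37 for Cd163, 0 to 51 for Cbr2, 0 to 42 for Lyve1 and 8 to 55 for Pf4. The SEs of these log2 fold changes were 0.97 to 1.37. Mrc1, with 31 to 93 reads, had a log2 fold change of -0.24 ± 0.53. For 8 markers of astrocytes, whose end-feet sheathe the vessels, and Bergmann glia, led by Slc1a2, the sums were 3988 to 4097 CPM in libraries labelled Slc7a5-KO and 4200 to 4711 CPM in WT, with a median of -0.11. Of these markers 2 were above 0 and 6 below. Gfap, named after its values were seen, was higher, at 226, 253 and 215 CPM in libraries labelled Slc7a5-KO and 196, 145 and 134 CPM in WT. Its log2 fold change was 0.55 ± 0.14 (edgeR adjusted p = 0.31), and the authors' deposited DESeq2 table gave it an adjusted p of 0.020. S100b of the same list, also named after its values were seen, was lower. It stood at 445, 526 and 408 CPM in libraries labelled Slc7a5-KO and at 572, 634 and 585 CPM in WT. The log2 fold change of S100b was -0.38 ± 0.13 (edgeR adjusted p = 0.64), and the deposited DESeq2 table gave it an adjusted p of 0.088. The 5 ependymal markers, led by Rarres2, had a median of -0.11, and the 8 oligodendrocyte markers, led by Mbp, 0.014. Purkinje cell markers, led by Itpr1, had a median of -0.43, with all 8 below 0. Granule neuron markers, led by Cbln3, had -0.17, with 2 above 0 and 6 below. No marker of either list passed in edgeR. Of Purkinje markers named after their values were seen, Rgs8 had -0.57 ± 0.13 (edgeR adjusted p = 0.22) and Homer3 -0.47 ± 0.14 (edgeR adjusted p = 0.47). The deposited DESeq2 table gave them adjusted p of 0.00049 and 0.031, and 0.9% of genes with an adjusted p passed there.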
